A study of Mus musculus and Homo sapiens with 10 samples.

Results

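The Hox gene clusters were examined in 10 lists of called peaks from chromatin immunoprecipitation followed by sequencing (ChIP-seq). A peak was taken as a member if it overlapped 1 of 4 windows, named A, B, C and D after the Hox clusters they stand for, in the mouse or in the human genome. This gave 259 of the 208002 peaks of the series, 157 in the 7 mouse lists and 102 in the 3 human lists. In mm9 coordinates the windows were chr6:52050000-52250000 (A), chr11:96000000-96250000 (B), chr15:102700000-102900000 (C) and chr2:74480000-74640000 (D). In hg19 coordinates they were chr7:27100000-27260000 (A), chr17:46580000-46830000 (B), chr12:54310000-54460000 (C) and chr2:176930000-177070000 (D). The clusters were selected on their UBF peak positions in these same lists, so the number of UBF peaks in the windows, and how it differs between clusters and lines, is a description and supports nothing.

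The mouse lists came from NIH3T3, a line of immortalized fibroblasts, with antibodies to UBF1/2, to the largest subunit of RNA polymerase I (Pol I), to the C-terminal repeat of RNA polymerase II (Pol II) phosphorylated at serine, and to H3K4me3, H3K9ac, hyperacetylated H4 and H3K9me3. The human lists were UBF1/2 and Pol I in HMEC, mammary epithelial cells immortalized by TERT, and UBF1/2 in HMLER, an isogenic line made from HMEC with TERT, the large-T antigen of SV40 and an oncogenic allele of HRAS (HRASV12G). The labels name no treatment, and the cells were growing exponentially. Positions without annotation give no check of the labelled cell types against marker genes. The study's design names 2 biological replicates of UBF in NIH3T3, but 1 list was analysed here, and whether it pools them is not given. Each list is 1 sample, so no value has a replicate error, and lists, clusters and lines could not be tested against each other. The lists hold positions only, with no height, count or score, so depth is unknown and a window without a peak shows only that none was called.

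Hox genes encode homeodomain transcription factors that set positional identity along the body axis, and their order on the chromosome follows the order in which they are used. In differentiated cells part of each cluster is usually active, with H3K4me3 and acetylated histones at its promoters, and the rest is held silent by Polycomb proteins, whose mark was not among the antibodies here. UBF is an HMG-box protein that keeps the ribosomal RNA genes open for Pol I. H3K9me3 is a mark of silent chromatin. The 38 Hox genes listed for the windows were all found in the RefSeq gene table, which is of GRCm38. In that table clusters B, C and D run, with rising position, from Hoxb13, Hoxc13 and Hoxd13 towards Hoxb1, Hoxc4 and Hoxd1. No mm9 or hg19 annotation was used, so peaks are named by cluster and position and none was assigned to a gene.

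Sequence could be read for promoters only, from RefSeq on GRCm38.p6, since no genome of the files' builds was used. The table held 24 promoters of mouse Hox genes, some genes having more than one start. They were 10 of cluster A, 3 of B, 1 of C and 10 of D, so many Hox genes, mostly of B and C, had none. In the 250 bases before the start they held a median of 12.5 CpG dinucleotides (range 2 to 35) and 58.6% G and C, against 6 CpG and 52.4% over all 32851 promoters of the table. At least 10 CpG were found in 15 of the 24 (62.5%) and in 37.8% of all promoters. The promoters with the most and the fewest CpG of the 24 are shown with every CpG in capitals, to give the range in CpG number within the clusters. The first is Hoxa13, at chr6:52260881-52261130 of GRCm38.p6 on the minus strand, and the second an upstream start of Hoxd11, at chr2:74679308-74679557 of GRCm38.p6 on the plus strand. These positions cannot be set beside the mm9 peaks.
Hoxa13: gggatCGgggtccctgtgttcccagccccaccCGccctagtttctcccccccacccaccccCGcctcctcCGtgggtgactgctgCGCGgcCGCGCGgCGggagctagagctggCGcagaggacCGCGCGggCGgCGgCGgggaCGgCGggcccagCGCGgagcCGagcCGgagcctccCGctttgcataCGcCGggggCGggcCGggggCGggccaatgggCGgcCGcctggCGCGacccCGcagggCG
Hoxd11: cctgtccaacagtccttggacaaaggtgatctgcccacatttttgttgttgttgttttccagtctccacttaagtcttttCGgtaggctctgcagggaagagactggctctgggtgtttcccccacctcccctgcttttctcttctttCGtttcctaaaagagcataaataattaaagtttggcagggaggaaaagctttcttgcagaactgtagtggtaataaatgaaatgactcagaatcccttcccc
Hoxa13, which is used at the distal end of limbs and trunk, had 35 CpG and 80% G and C in this stretch, and this start of Hoxd11 had 2 CpG and 44.8%. The lowest share of G and C was 40.4%, at Hoxd4. CpG-rich promoters were thus common but not general among these 24, which stand mainly for clusters A and D.

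In NIH3T3 cells UBF peaks were found in 2 of the 4 clusters. Window A held 6 UBF peaks and window D held 3, and windows B and C held none. UBF covered 3.27% of window A and 2.56% of window D, against 0.150% of the numbered chromosomes and X. When those chromosomes were cut into adjoining tiles as long as window A (200 kb), 0.0455% of the tiles held at least 6 UBF peaks. Of tiles as long as window D (160 kb), 0.358% held at least 3. The tiles take in the windows themselves, and the clusters were chosen on UBF peaks, so these shares only describe the choice. Just outside the windows the nearest UBF peaks lay 91.1 kb beyond the end of window A, 14.3 kb beyond the end of window B, 170 kb before window C and 773 kb before window D. The UBF peaks of A and D thus formed groups within their windows, and those of A lay at least 63.3 kb inside the window. The list held 0.139 UBF peaks per 100 kb of the chromosomes, and whether the gaps around the groups are unusual was not tested.

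The 6 UBF peaks of cluster A fell into a pair, 2 single peaks near it and 2 more distant ones, over 50.4 kb. The widest ran from 52113312 to 52115374 on chromosome 6 (2062 bp, rank 104 by width of the 3704 UBF peaks), and the next began 90 bp after it, from 52115464 to 52116448 (984 bp). Both met Pol II, H3K4me3, H3K9ac and H4 hyperacetylation. The third, from 52118561 to 52119317 (756 bp), met H3K9me3, H3K9ac and H4 hyperacetylation, and the nearest H3K4me3 peak lay 1840 bp away and the nearest Pol II peak 572 bp away. It was the only member of the UBF list in the windows that met H3K9me3 or missed H3K4me3. The fourth, from 52126964 to 52127700 (736 bp), met all 3 active marks but no Pol II, which lay 6.32 kb away, and the nearest H3K9me3 peak lay 412 bp away. The last pair, from 52153536 to 52154472 (936 bp) and from 52162648 to 52163717 (1069 bp), met Pol II and all 3 active marks, and were 27.0 and 36.1 kb from H3K9me3.

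The 3 UBF peaks of cluster D lay within 15.4 kb on chromosome 2. They ran from 74535421 to 74536983 (1562 bp), from 74542772 to 74544379 (1607 bp) and from 74549871 to 74550800 (929 bp). Each met Pol II, H3K4me3, H3K9ac and H4 hyperacetylation, and none lay closer than 13.8 kb to H3K9me3. The only Pol I peak of NIH3T3 in the 4 windows, from 74549745 to 74550029 (284 bp), overlapped the third of them by 158 bp. It also met Pol II and the 3 active marks. Of the whole Pol I list, 20.9% met UBF, 58.3% Pol II, 68.9% H3K4me3, 68.8% H3K9ac and 71.3% H4 hyperacetylation, and 7.33% of 160-kb tiles held a Pol I peak. In cluster A the nearest Pol I peak was 693 kb from any UBF peak.

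**Figure D1:**
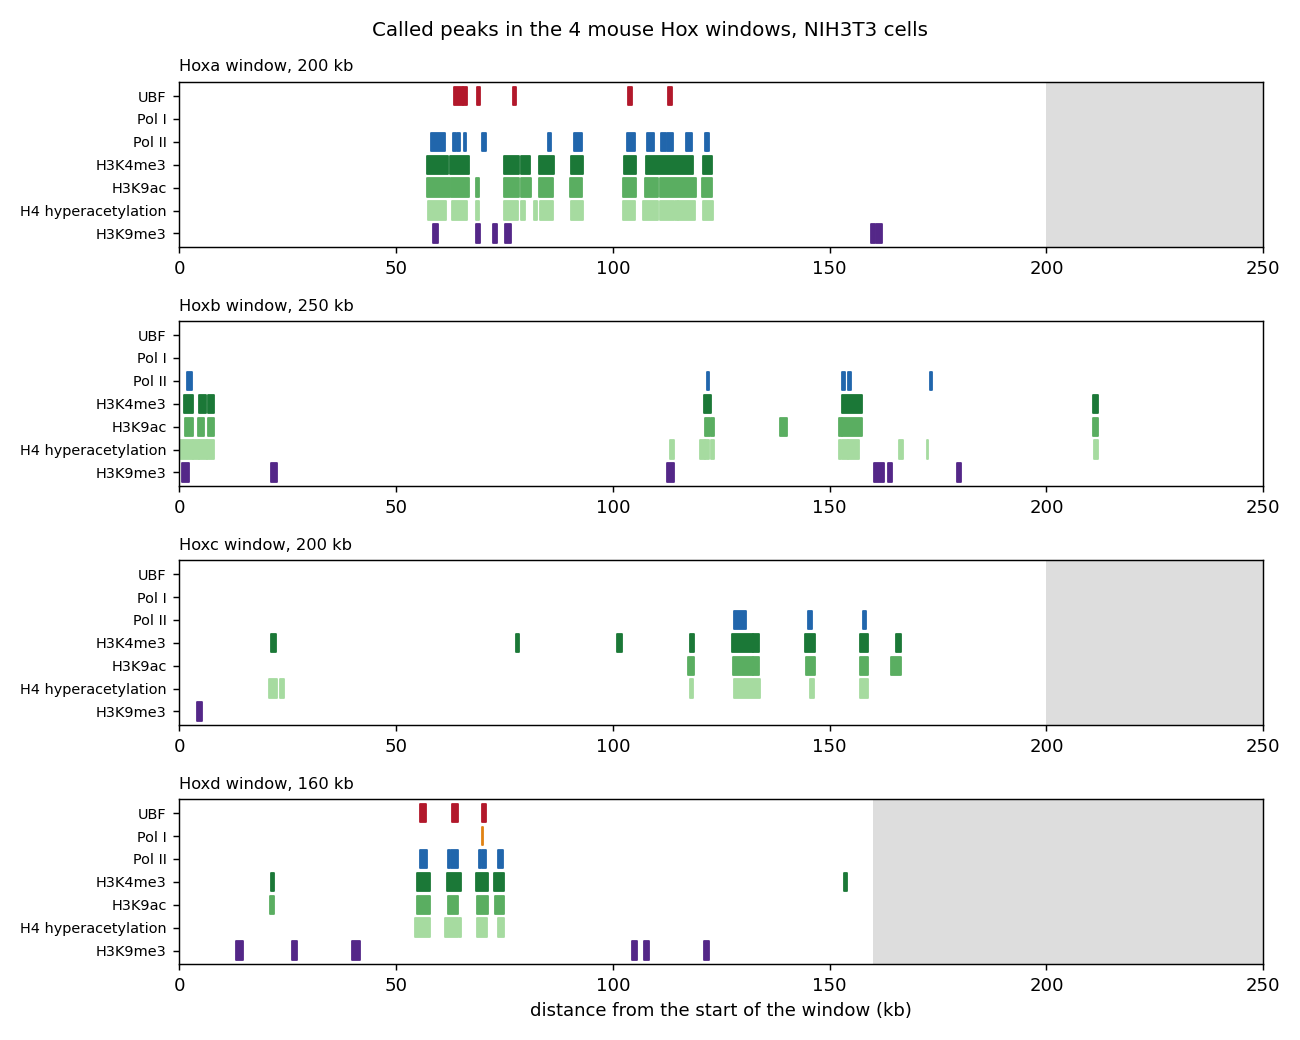
Peaks called in NIH3T3 cells over the 4 mouse windows. Each row is 1 list and each block 1 peak, drawn to scale against the distance from the start of the window in kb, and grey marks what lies beyond a shorter window. UBF appears in A (6 peaks) and D (3 peaks), each time within the stretch that holds the Pol II and H3K4me3 peaks.

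The 9 UBF peaks of the windows all met acetylation peaks. All 9 met H3K9ac (exact 95% interval 66.4 to 100%) and all 9 met H4 hyperacetylation, where 49.1% and 50.2% of the whole UBF list did. H3K4me3 was met by 8 of 9 (88.9%, 51.8 to 99.7) against 49.3% of the list, and Pol II by 7 of 9 (77.8%, 40.0 to 97.2) against 50.5%, a share that lies inside the interval. The contrast with the list depended on the overlap setting. With 50% or more of the UBF peak covered, H3K4me3 was met by 8 of 9 (51.8 to 99.7), against 48.2% of the list. H3K9ac and H4 hyperacetylation were then each met by 9 of 9 (66.4 to 100), against 48.2% and 48.8%. All 3 list shares lay outside the intervals. With centres within 1000 bp, H3K9ac and H3K4me3 were each met by 7 of 9 (40.0 to 97.2), against 44.8% and 44.7% of the list, both inside the interval. H4 hyperacetylation was then met by 8 of 9 (51.8 to 99.7), against 47.7%, which lies outside it. In the wider 50% of each list, each of the 3 active marks was met by 5 of 5 (47.8 to 100), against 67.5% to 68.1% of the list, also inside it. Pol II and all 3 active marks together were met by 7 of 9, against 47.5% of the list (inside the interval of 40.0 to 97.2). None of the 9 was free of Pol II and the 4 histone marks (0 of 9, upper bound 33.6%), although 46.1% of the list was. H3K9me3 was met by 1 of 9 and Pol I by 1 of 9, where the list had 16.2% and 7.32%, both inside the interval of 0.281 to 48.2. By bases, 92.9% of the UBF-covered bases of the windows lay in H3K4me3, 97.9% in H3K9ac and 73.9% in Pol II, against 57.6%, 57.4% and 50.6% over the whole list. Intervals treat peaks as separate draws and cover counting error only. Neighbouring peaks of 1 sample share their chromatin, so the 9 peaks are not replicates. The clusters were chosen on these UBF peaks, so their shares describe the chosen peaks and the intervals test nothing. Windows A and D were also dense in marks, with 18.2% and 7.93% covered by H3K4me3 against 2.12% of the chromosomes. The part of this density in the shares was not tested.

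The active chromatin of the mouse clusters differed in extent. H3K4me3, a mark of active promoters, covered 18.2% of window A, 4.84% of B, 7.64% of C and 7.93% of D, where the whole list covered 2.12% of the chromosomes. H3K9ac covered 19.2%, 5.85%, 6.99% and 6.86%, and H4 hyperacetylation 17.6%, 7.08%, 6.17% and 6.49%. Pol II covered 8.51% of A, 3.96% of D, 2.19% of C and 1.39% of B, against 1.01% of the chromosomes. By number, window A held 14 Pol II, 9 H3K4me3, 11 H3K9ac and 14 H4 hyperacetylation peaks, and 3.99%, 5.81%, 4.13% and 5.48% of 200-kb tiles held as many. B held 5, 6, 9 and 14, C held 3, 9, 6 and 6, and D held 6, 6, 5 and 5. Tiles with as many H3K4me3 peaks made up 18.3% for B, 5.81% for C and 9.95% for D. Part of the counts and coverage of B came from the edge of its window. H3K4me3, H3K9ac and H4 hyperacetylation peaks lay there, those of H3K4me3 between 1.16 and 7.94 kb into the window. The next H3K4me3 peak of B began 121 kb into it. Whether the edge peaks belong to the Hox cluster was not tested. Cluster A was first by coverage in all 4 lists, and by Pol II the pair with UBF, A and D, came before B and C. The order of B, C and D differed between the 3 marks.

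**Figure D2:**
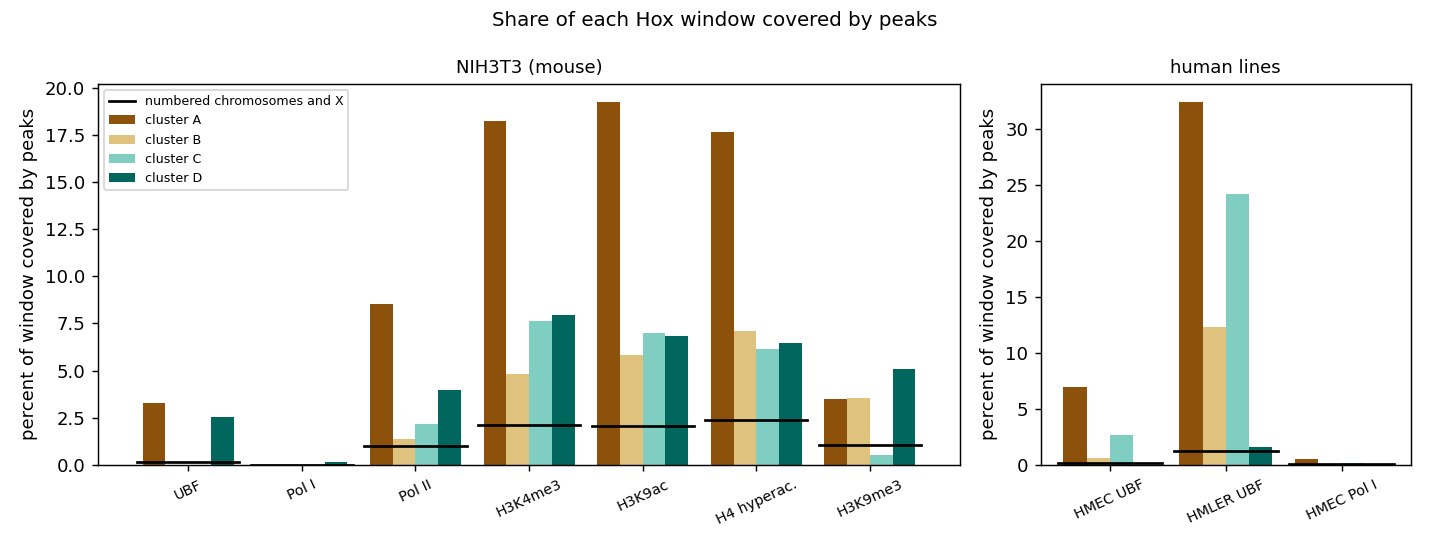
Percent of each window covered by the peaks of each list, with bars for clusters A to D and a black line for the same percentage over the numbered chromosomes and X. In NIH3T3 cluster A stands highest for Pol II and the 3 active marks (8.51% to 19.2%), and in the human lines the bars of A are highest and those of D lowest for both UBF lists.

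Cluster A was marked over a block of 65.6 kb, from 57.2 to 123 kb into its window. All 9 H3K4me3 peaks of A lay there, 7 with a Pol II peak, and all 9 had both H3K9ac and H4 hyperacetylation. Its widest H3K4me3 peak ran from 52157663 to 52168484 (10821 bp) and ranked 35 of the 27982 H3K4me3 peaks by width. The sixth UBF peak lay inside it. Widths of 4 kb or more were found in 3 of 9 H3K4me3 peaks of A, 1 of 6 in B, 1 of 9 in C and 0 of 6 in D. In all they were 5 of 30 (exact interval 5.64 to 34.7%), which holds the 6.81% of the list. The widest H3K9ac peak of A, from 52160828 to 52169157 (8329 bp), ranked 159 of 28308 and overlapped that H3K4me3 peak. The widest Pol II peak of A, from 52108050 to 52111306 (3256 bp, rank 345 of 30239), had no UBF peak and met H3K9me3 together with the active marks. The widest H4 hyperacetylation peak of A, from 52107341 to 52111540 (4199 bp), covered the same place.

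Cluster D had a compact block of 20.02 kb, from 54.8 to 74.8 kb into its window. It held the 4 H3K4me3 peaks of D with Pol II, 3 of them with UBF. Its widest H3K4me3 peak ran from 74541672 to 74544990 (3318 bp), the widest Pol II peak from 74535432 to 74537092 (1660 bp), the widest H3K9ac peak from 74534701 to 74537785 (3084 bp) and the widest H4 hyperacetylation peak from 74534457 to 74537715 (3258 bp). Each of these 4 met a UBF peak. The 2 other H3K4me3 peaks of D, 712 and 751 bp wide, had neither Pol II nor UBF.

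Clusters B and C carried active marks and Pol II without a called UBF peak. In C the widest H3K4me3 peak, from 102827534 to 102832322 on chromosome 15 (4788 bp, rank 1010), was of the size of the second widest in A (4785 bp, rank 1012). It met the widest Pol II peak of the 3 in C, from 102828041 to 102830788 (2747 bp, rank 572), and an H4 hyperacetylation peak of 6132 bp (102827820 to 102833952, rank 400 of 41519). The widest H3K9ac peak of C ran from 102827637 to 102832275 (4638 bp). In B the widest H3K4me3 peak ran from 96152839 to 96157572 on chromosome 11 (4733 bp), over an H3K9ac peak from 96152830 to 96157521 (4691 bp) and 2 Pol II peaks of 526 and 771 bp. The widest Pol II peak of B, from 96001768 to 96002896 (1128 bp), and the widest H4 hyperacetylation peak, from 95999758 to 96003177 (3419 bp), lay at the edge of the window, the latter partly outside it. Wide marked sites of B and C thus went without UBF, as did the 4785 bp peak of A.

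The share of H3K4me3 peaks with UBF was 4 of 9 in A (44.4%, 13.7 to 78.8), 3 of 6 in D (exact interval 11.8 to 88.2%), 0 of 6 in B and 0 of 9 in C. In all it was 7 of 30 (23.3%, 9.93 to 42.3), against 6.41% of the list. Because UBF peaks guided the choice of the clusters, this share and those of the other lists with UBF are descriptions from which nothing is read. The 0 of 6 and 0 of 9 have upper bounds of 45.9% and 33.6%, so B and C are not shown to lie below the list. The 7 H3K4me3 peaks with UBF had widths of 2787 to 10821 bp (median 3318 bp), and the 23 without had widths of 657 to 4788 bp (median 1604 bp). Within A the medians were 3878 bp with UBF (4 peaks) and 2971 bp without (5 peaks), and within D 2924 and 751 bp (3 peaks each). The widths overlapped in A, and in D those without UBF, up to 2201 bp, lay below those with it. The 23 include every H3K4me3 peak of B and C. A wider peak also has more room to share 1 bp with UBF, and the part of this in the widths was not tested. Widths with and without UBF over the whole list were not computed. Other properties of the H3K4me3 peaks were near those of the whole list. Pol II was met by 17 of 30 (56.7%, list 53.2%), H3K9ac by 26 of 30 (86.7%, list 84.9%), H4 hyperacetylation by 25 of 30 (83.3%, list 87.2%) and H3K9me3 by 3 of 30 (list 13.9%). Pol I was met by 1 of 30, in D, against 3.26%. With Pol II were 7 of 9 in A, 4 of 6 in D, 3 of 6 in B and 3 of 9 in C. Neither Pol II nor acetylation was met by 2 peaks of C and 1 of D. In all these were 3 of 30 (2.11 to 26.5), which holds the 7.11% of the list.

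**Figure D3:**
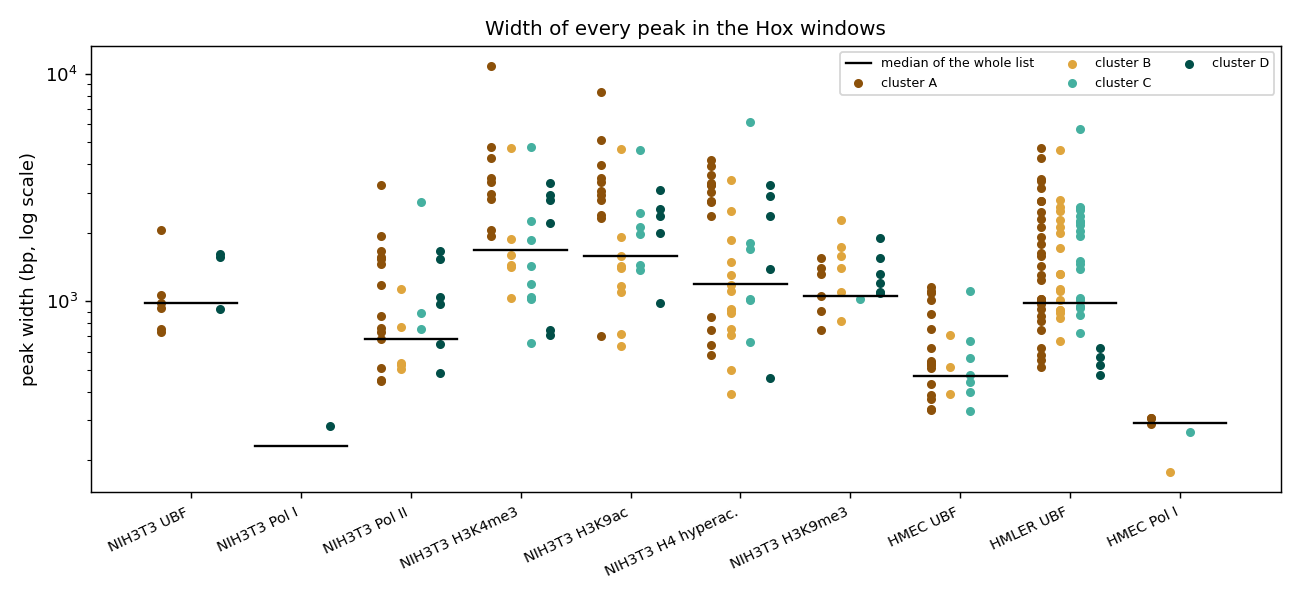
Width of each of the 259 peaks in the windows, on a log scale, by list and by cluster (colour), with the median of each whole list as a black line. The H3K4me3 peak of 10821 bp in cluster A and the HMLER UBF peak of 5754 bp in cluster C are the widest of their lists in the windows, and the 4 HMLER peaks of cluster D all lie below that list's median of 982 bp.

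Pol II peaks of the windows met the active marks more often than the list as a whole. Of the 28, 26 met all 3 active marks (92.9%, 76.5 to 99.1), against 57.1% of the list. Taken singly, the same 26 met H3K4me3 (list 60.8%), H3K9ac (61.5%) and H4 hyperacetylation (63.9%). These 26 met 17 H3K4me3 peaks, so several shared a marked site, although the interval treats them as separate draws. The shares of Pol II peaks were not tried under other overlap settings. UBF was met by 8 (28.6%, 13.2 to 48.7), against 6.60%, and Pol I by 1 (3.57%), against 2.57%. Those 8 were 5 of the 14 in A and 3 of the 6 in D. The 2 Pol II peaks without any histone mark ran from 52119889 to 52120649 in A (760 bp) and from 96173201 to 96173705 in B (504 bp), and 30.7% of the list had none. The first lay 572 bp from the UBF peak that missed H3K4me3.

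The acetylation peaks mostly met H3K4me3, least often in cluster B. There 6 of 9 H3K9ac and 8 of 14 H4 hyperacetylation peaks met it. The counts were 10 of 11 and 12 of 14 in A, 6 of 6 and 5 of 6 in C, and 5 of 5 for both in D. Of the 31 H3K9ac peaks, 28 met H4 hyperacetylation (90.3%, list 90.2%), 27 met H3K4me3 (87.1%, list 87.2%) and 18 met Pol II (58.1%, list 53.4%), shares near those of the list. UBF was met by 8 (25.8%, 11.9 to 44.6), against 6.31%, and Pol I by 1, against 3.23%. Of the 39 H4 hyperacetylation peaks, 31 met H3K9ac (79.5%, 63.5 to 90.7; list 66.5%), 30 met H3K4me3 (76.9%, list 65.6%), 20 met Pol II (51.3%, list 40.7%), 8 met UBF (20.5%, 9.30 to 36.5; list 4.54%) and 1 met Pol I (list 2.30%). The shares with Pol I, Pol II, H3K4me3 and H3K9ac had intervals that held the value of the list. In window B the H3K9ac peak from 96138461 to 96140051 (1590 bp) met no other list. In window A the H4 hyperacetylation peak from 52131804 to 52132384 (580 bp) met none. The same held for H4 hyperacetylation peaks of B, from 96166098 to 96166854 and from 96172364 to 96172754, and of C, from 102723198 to 102724217. The share of such peaks over the whole list was not counted.

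H3K9me3 peaks were present in every window, 6 each in A, B and D and 1 in C. Tiles with as many made up 6.33%, 9.45%, 4.07% and 63.5% for A, B, D and C. The peaks covered 3.49%, 3.57%, 0.513% and 5.09% of A, B, C and D, against 1.06% of the chromosomes. In D, 3 lay before the active block and 3 after it, each at least 4.19 kb from H3K4me3, and none met Pol II or an active mark. The widest of D ran from 74519722 to 74521612 (1890 bp). In A, 4 lay within the block, and 2 of those met H3K4me3, at the 4785 bp peak and at the 3497 bp peak that holds the fourth UBF peak. The widest of A, from 52210578 to 52212133 (1555 bp), lay 37.8 kb beyond the last H3K4me3 peak. The widest of B, from 96160141 to 96162428 (2287 bp), and the only one of C, from 102704115 to 102705141 (1026 bp), met no other list. The peak of C began 4.1 kb into its window, so the presence of H3K9me3 there rests on a peak near the edge. In all, 14 of the 19 (73.7%) met neither Pol II nor an active mark, against 73.6% of the list. UBF was met by 1 of the 19, the peak from 52118509 to 52119255 in A (746 bp), against 2.58% of the list, and Pol I by 0 of 19 (upper bound 17.6%), against 0.925%.

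In the human epithelial lines UBF was found in clusters A, B and C, and in HMLER also in D. HMEC had 17 UBF peaks in window A, 7 in C, 3 in B and none in D. HMLER had 29 in A, 19 in C, 18 in B and 4 in D. UBF covered 6.96%, 2.66%, 0.646% and 0% of A, C, B and D in HMEC, where the list covered 0.173% of the chromosomes. In HMLER it covered 32.5%, 24.2%, 12.3% and 1.56%, where the list covered 1.26%. The clusters thus took the same order, A, C, B and D, in both lines by coverage, whereas in NIH3T3 the clusters with UBF were A and D. With peaks closer than 2 kb merged, HMLER had 9 peaks in A, 13 in B and 12 in C, so its order by number turned. Species, tissue of origin and list length all differ between the mouse and human lists and cannot be told apart.

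Few tiles of the same length held as many peaks as A and C. Of tiles as long as human window A (160 kb), 0.0158% held at least 17 HMEC peaks (3 of 18977 tiles) and 0.0105% at least 29 HMLER peaks (2 tiles). Of tiles as long as window C (150 kb), 0.232% held at least 7 HMEC peaks and 0.168% at least 19 HMLER peaks. Counts as in B were reached more often, with 9.85% of 250-kb tiles holding at least 3 HMEC peaks and 1.47% at least 18 HMLER peaks. In D, 13.6% of 140-kb tiles held at least 4 HMLER peaks. The count of B in HMEC and that of D in HMLER were thus reached by many tiles. Just outside the windows, the nearest HMEC peaks lay 148 kb beyond A, 117 kb beyond B, 127 kb beyond C and 242 kb before D. For HMLER the nearest lay 14.8, 2.15 and 24.1 kb beyond A, B and C and 62.6 kb before D.

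**Figure D4:**
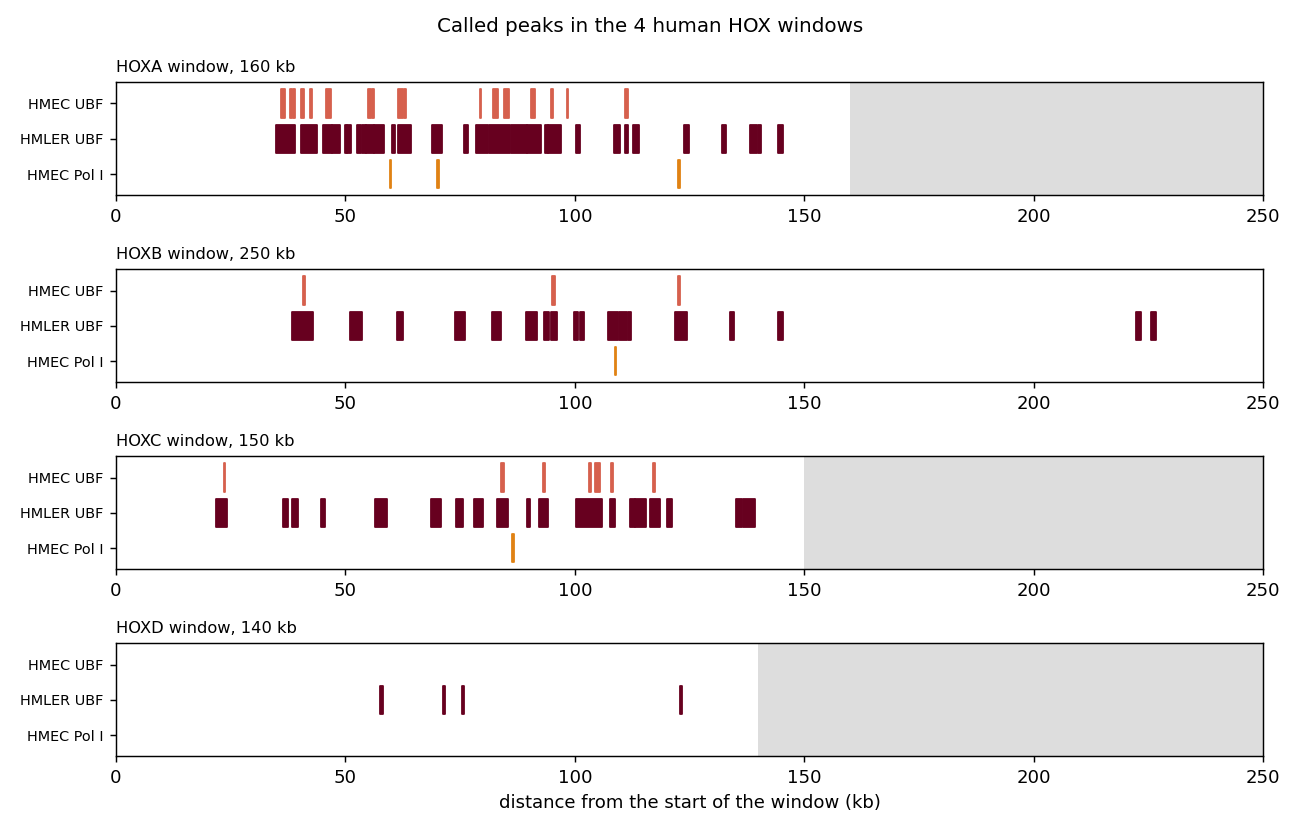
UBF peaks of HMEC and HMLER and Pol I peaks of HMEC over the 4 human windows, drawn against the distance from the start of the window in kb, with grey beyond shorter windows. In A, B and C, 26 of the 27 HMEC peaks overlap an HMLER peak, and D holds 4 narrow HMLER peaks and none of HMEC.

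Of the 27 HMEC UBF peaks of the clusters, 26 met an HMLER peak (96.3%), and 56.8% of the whole HMEC list did. Both UBF lists entered the choice of the clusters, so the overlaps between them are a description from which nothing is read. The exception, from 27198213 to 27198598 on chromosome 7 (385 bp), lay 1.31 kb from the nearest HMLER peak. By bases, 97.2% of the HMEC-covered bases of the windows lay in HMLER peaks, against 55.6% over the list. HMLER peaks covered 17.3% of the 4 windows and 1.26% of the chromosomes, and the part of this density in the shared count was not tested. With the HMLER list reduced to as many of its widest peaks as the HMEC list holds, 23 of 27 met a peak (85.2%), against 41.2% of the list. With all peaks set to 500 bp it was 15 of 27 (55.6%), and 41.1% of the list.

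The HMLER peaks were wider than the HMEC peaks, with a median of 1402.5 bp in the windows against 530.0 bp. The whole lists also differed, with medians of 982 bp in HMLER and 469 bp in HMEC. The 26 shared HMEC peaks overlapped 19 of the 70 HMLER peaks (27.1%), where 14.6% of the HMLER list met one. Of the 19, 13 met 1 HMEC peak and 6 met 2 or 3 (31.6%), and 12.5% of such peaks over the whole list met 2 or more. By cluster the 19 were 10 of 29 in A, 3 of 18 in B, 6 of 19 in C and 0 of 4 in D. In cluster A the widest HMLER peak, from 27181221 to 27185947 (4726 bp, rank 107 of 32274), held 2 of the wider HMEC peaks, from 27182138 to 27183229 (1091 bp) and from 27184579 to 27185596 (1017 bp). The next, from 27134817 to 27139094 (4277 bp), met 3. The third, from 27140375 to 27143841 (3466 bp), held 2. The 2 widest HMEC peaks of A ran from 27161496 to 27162654 (1158 bp) and from 27145679 to 27146793 (1114 bp), and overlapped HMLER peaks of 2769 and 1909 bp. HMLER peaks of the windows with an HMEC peak had a median width of 2519 bp and the 51 without had 1026 bp, where the whole list had 1761 and 900 bp.

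In cluster C the widest HMLER peak, from 54410156 to 54415910 on chromosome 12 (5754 bp), ranked 40 of 32274. It held 2 HMEC peaks, of which the wider, from 54414379 to 54415486 (1107 bp), was the widest of C in HMEC. The next in HMLER, from 54366507 to 54369100 (2593 bp) and from 54446654 to 54449217 (2563 bp), held none. The next in HMEC, from 54393931 to 54394602 (671 bp) and from 54402961 to 54403525 (564 bp), lay in HMLER peaks of 2371 and 1930 bp. In cluster B the widest HMLER peak, from 46618301 to 46622919 on chromosome 17 (4618 bp, rank 120), held an HMEC peak of 515 bp (46620678 to 46621193). The HMEC peaks from 46674972 to 46675682 (710 bp) and from 46702550 to 46702939 (389 bp) lay in HMLER peaks of 1323 and 2790 bp. The latter, from 46701718 to 46704508, was the second widest of B in HMLER, and the third, from 46631068 to 46633655 (2587 bp), held no HMEC peak. In D the 4 HMLER peaks were 472 to 622 bp wide. The 3 widest ran from 176987504 to 176988126, from 177001197 to 177001764 and from 177052930 to 177053452.

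The excess of HMLER over HMEC peaks was uneven across clusters. Over the numbered chromosomes and X the number of peaks in HMLER was 3.41 times that in HMEC and the number of covered bases 7.29 times (38.2 against 5.24 Mb). In the 4 windows together the ratios were 2.59 for peaks (70 against 27) and 7.24 for bases (121195 against 16744). By cluster the base ratio was 4.66 in A, 9.10 in C and 19.1 in B, and D went from 0 to 2183 bases. By bases the 4 clusters taken as one were thus near the ratio of the lists, with A below it and B and C above it. By peaks they were below it, with ratios of 1.71 in A, 2.71 in C and 6 in B. The ratios of B rest on 3 HMEC peaks (1614 bases). Because both UBF lists entered the choice of the clusters, all these ratios are a description. When the HMLER list was reduced to the 9478 widest, the number of HMEC peaks, the clusters held 15 (A), 12 (C), 8 (B) and 0 (D) peaks, against 17, 7, 3 and 0 in HMEC. Each line has 1 list, so its difference from the other has no error from repeated cultures, and no order among clusters was tested.

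The 5 Pol I peaks of HMEC in the windows did not overlap UBF peaks of the same cells. Window A held 3, B and C 1 each, and D none. This was 0.714 peaks per 100 kb over the 4 windows (1.88 in A), against 0.306 over the numbered chromosomes and X. In A they ran from 27159654 to 27159962 (308 bp), from 27170030 to 27170317 (287 bp) and from 27222573 to 27222881 (308 bp). The peak of B ran from 46688847 to 46689024 (177 bp) and that of C from 54396384 to 54396649 (265 bp). Of 160-kb tiles, 3.35% held at least 3 Pol I peaks, and 43.8% and 31.2% of tiles as long as B and C held at least 1. The gap to the nearest HMEC UBF peak was 1.53, 6.82 and 11.03 kb in A, 13.2 kb in B and 1.78 kb in C. None of 5 met HMEC UBF (upper bound 52.2%), and 2.86% of the Pol I list did. Of the 5, 2 met an HMLER UBF peak (exact interval 5.27 to 85.3%), against 12.4% of the list, which lies inside the interval. They were the second of A, within 27168773 to 27171067 (2294 bp), and that of B, within 46687261 to 46689391 (2130 bp). With centres within 1000 bp it was 3 of 5 (14.7 to 94.7), against 13.6%. Of the 70 HMLER peaks these were 2 (2.86%, 0.348 to 9.94), against 3.47%. The other 3 lay 202 to 938 bp from an HMLER peak. In the reverse direction 0 of 27 HMEC UBF peaks met Pol I (upper bound 12.8%), against 2.72% of the list, so at this number of peaks no difference was detectable.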

How the data were processed

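Peaks of UBF, Pol I, Pol II and 4 histone marks in NIH3T3, of UBF in HMLER, and of Pol I and UBF in HMEC, were taken as the authors deposited them, in 10 lists with the chromosome, start and end of each peak. Per the submitters' processing notes, the builds were hg19 and mm9 and the tools included Picard, BWA and CASAVA 1.8.2. Not given in the sources used here are how peaks were called, at which threshold, and whether replicates were pooled. Inputs were not analysed here. At the same numbers, 6.34% of GRCm38 promoters met an H3K4me3 peak, so GRCm38 was not used to place peaks.

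Lines were split at carriage returns. A peak belonged to a window, or met another peak, if they shared at least 1 bp, and width is end minus start. Shares carry exact (Clopper-Pearson) 95% binomial intervals (scipy 1.17.1, Python 3.11.15) and stand beside the share of the whole list. Tiles were cut from the start of each chromosome to the last peak of the species' lists, and a peak over a border counts in both tiles. The stretches of the windows were not left out of the tiles. The code was tested on simulated peaks. Figures were drawn with matplotlib 3.10.9.

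The windows, members and lists were chosen with earlier results of these data known. The UBF and Pol I peaks of NIH3T3, the Pol I peaks of HMEC and the HMEC UBF peaks without HMLER were named in full, and otherwise the 3 widest UBF peaks of each human cluster and the widest peak of each mark; further peaks were named after their values were seen. A planned list of neighbouring genes and cofactors needed an annotation of the builds and was not analysed here.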

Additional observations from a re-analysis of the deposited data

How the results depend on the processing

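Counts and widths were held to have moved past a factor of 1.5, and shares once outside the exact 95% interval of the reported share. Counts of UBF were tried by cluster, and those of the other lists only over the 4 windows together. Of these, no count with centres inside the window or windows narrowed by 10 kb moved. Narrowing took H3K4me3 from 30 to 26 peaks and H3K9me3 from 19 to 17. The peaks lost included H3K4me3 peaks at the edge of B and the only H3K9me3 peak of C. Counts of these lists by cluster are thus not shown to be stable. With windows widened by 50 kb the count of NIH3T3 UBF in B went from 0 to 1, and nothing else moved. The interval of UBF peaks with H3K4me3 (8 of 10, 44.4 to 97.5) then held the 49.3% of the list. The intervals for H3K9ac and H4 hyperacetylation (9 of 10 each, 55.5 to 99.7) did not hold the 49.1% and 50.2% of the list. Merging peaks closer than 500 bp gave 19 HMLER peaks in A and a median H4 hyperacetylation width of 2382 bp. Merging within 2 kb gave 10 HMEC peaks in A, 9 and 12 HMLER peaks in A and C, 19 H3K9ac peaks and 22 H4 hyperacetylation peaks, so HMLER had fewer merged peaks in A than in B (13) or C. In the wider 50% of each list, 3 NIH3T3 UBF peaks remained in A, 4 HMEC peaks in C, 0 HMLER peaks in D, 18 H3K4me3, 22 H4 hyperacetylation and 2 HMEC Pol I peaks. There the share of NIH3T3 UBF peaks was 0% for Pol I, 0% for H3K9me3 and 100% for H3K4me3 (5 peaks), that of NIH3T3 Pol I in UBF 0% (1 peak), that of HMEC Pol I in HMLER UBF 0% (2 peaks), that of HMLER UBF in Pol I 0%, and those of H3K4me3 in Pol II and H3K9ac were 83.3% and 100%. Where 50% or more of a peak had to be covered, 0% of NIH3T3 UBF peaks met Pol I, 7.14% of HMLER peaks met HMEC, 0% of HMLER peaks met Pol I and 30.0% of H3K4me3 peaks met Pol II; narrow peaks cannot cover 50% of wide ones. HMEC peaks met HMLER at 77.8% with centres within 1000 bp and 55.6% with all peaks at 500 bp. Of the HMLER peaks left when that list was shortened to the widest, 45.7% met HMEC, and the counts in A, B, C and D were 15, 8, 12 and 0, an alternative for the counts that was chosen after seeing the data. No paired analysis was possible because each group is 1 list. Leaving out a replicate was not possible for the same reason.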
